A study of Danio rerio with 6 samples.

Results

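The genes described here are the positive limb of the circadian clock in zebrafish, 10 genes chosen by symbol (clocka, clockb, npas2, arntl1a, arntl1b, arntl2, roraa, rorab, rorb and rorcb) out of 39214 genes in the deposited table, each of which matched 1 row. RNA was sequenced from larvae at 5 dpf in 2 groups with 3 biological replicates each, and all larvae were AB wild type. The control group was described in the methods as a solvent control with DMSO, and the Lurasidone group was exposed to 4 mg/L Lurasidone, an antipsychotic that blocks dopamine and serotonin receptors, from 3 hpf according to the labels and from a later start according to the methods. The comparison asks how the transcripts of these genes differed between exposed and control larvae.

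In the vertebrate clock, Clock (or its relative Npas2) pairs with an Arntl protein, also called Bmal, and the pair binds E-box elements in DNA and switches on the per, cry and Rev-erb genes. The Per and Cry proteins then block the pair. The Ror receptors form a further loop, in which Ror proteins activate and Rev-erb proteins repress genes through the same DNA element, among them the Arntl gene in mammals. Zebrafish have duplicates of several of these genes, most tissues of the larva hold a clock of their own that responds directly to light, and the transcripts of clock genes rise and fall over the day. All libraries were taken at a single age, and the hour of collection within the light cycle is not given in the sources used here, so a shift in the phase of the clock and a change in its level cannot be told apart.

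The values are FPKM (fragment counts divided by the length of the gene and by a denominator for each library). Reading them back into fragments gave 11749887 to 15107664 fragments on genes per library. These came to 84.5% to 104.04% of the denominator, so it was not the sum of the fragments on genes. In the methods, whole larvae were collected while the RNA is said to come from brain. Most muscle, liver, skin and exocrine pancreas markers were abundant in every library, so the RNA was not of brain alone. For example, ckmb, a muscle creatine kinase, was at 1480 to 3670 FPKM and prss1, a trypsin, at 721 to 1296 FPKM. Some markers of these tissues were close to 0, such as mylpfa, a fast myosin light chain, at 0 to 0.255 FPKM. Others were ctrb1 of the exocrine pancreas at 0 to 0.102 FPKM and krt5 of the skin at 0.0906 to 0.395 FPKM. A listing near 0 in this table therefore cannot be taken as absence. In bulk RNA of this kind, fewer cells of a type and less RNA per cell cannot be told apart.

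Of the 10 genes, 8 had at least 0.5 FPKM in at least 3 libraries and were tested with limma on log2(FPKM + 1) together with all other genes, 23409 in total. An adjusted p of at most 0.05 (Benjamini-Hochberg over all tested genes) was reached by 1 of the 8, rorab, which rose in Lurasidone, where 5.79% of all tested genes passed in that direction. In the lower direction 0 of the 8 passed, against 3.90% of all tested genes, and limma voom on fragments, which tested 9 of the 10 among 31117 genes, also gave 0 lower. At an unadjusted p of at most 0.05 there were 3 higher (clockb, roraa and rorab) and 1 lower (arntl1a), so 4 of 8, where 28.2% of all tested genes reached that level. The fold threshold of the study (1 or more on the log2 scale, in either direction) was then added, on log2(FPKM + 1). With it 0 of the 8 passed, against 2.61% of all tested genes higher and 1.22% lower. The pseudocount of 1 understates changes of genes at low FPKM. With a pseudocount of 0.1 and in limma voom on fragments, 1 gene (rorab) passed. The groups did not overlap for 3 of the 8 on the higher side, where this held for 17.1% of all tested genes, and for 1 on the lower side, where it held for 16.2%. The log2 fold change was above 0 for 7 of the 8, with a median of 0.42. Of all 23409 tested genes, 11334 were above 0, with a median of -0.02.

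**Figure D1:**
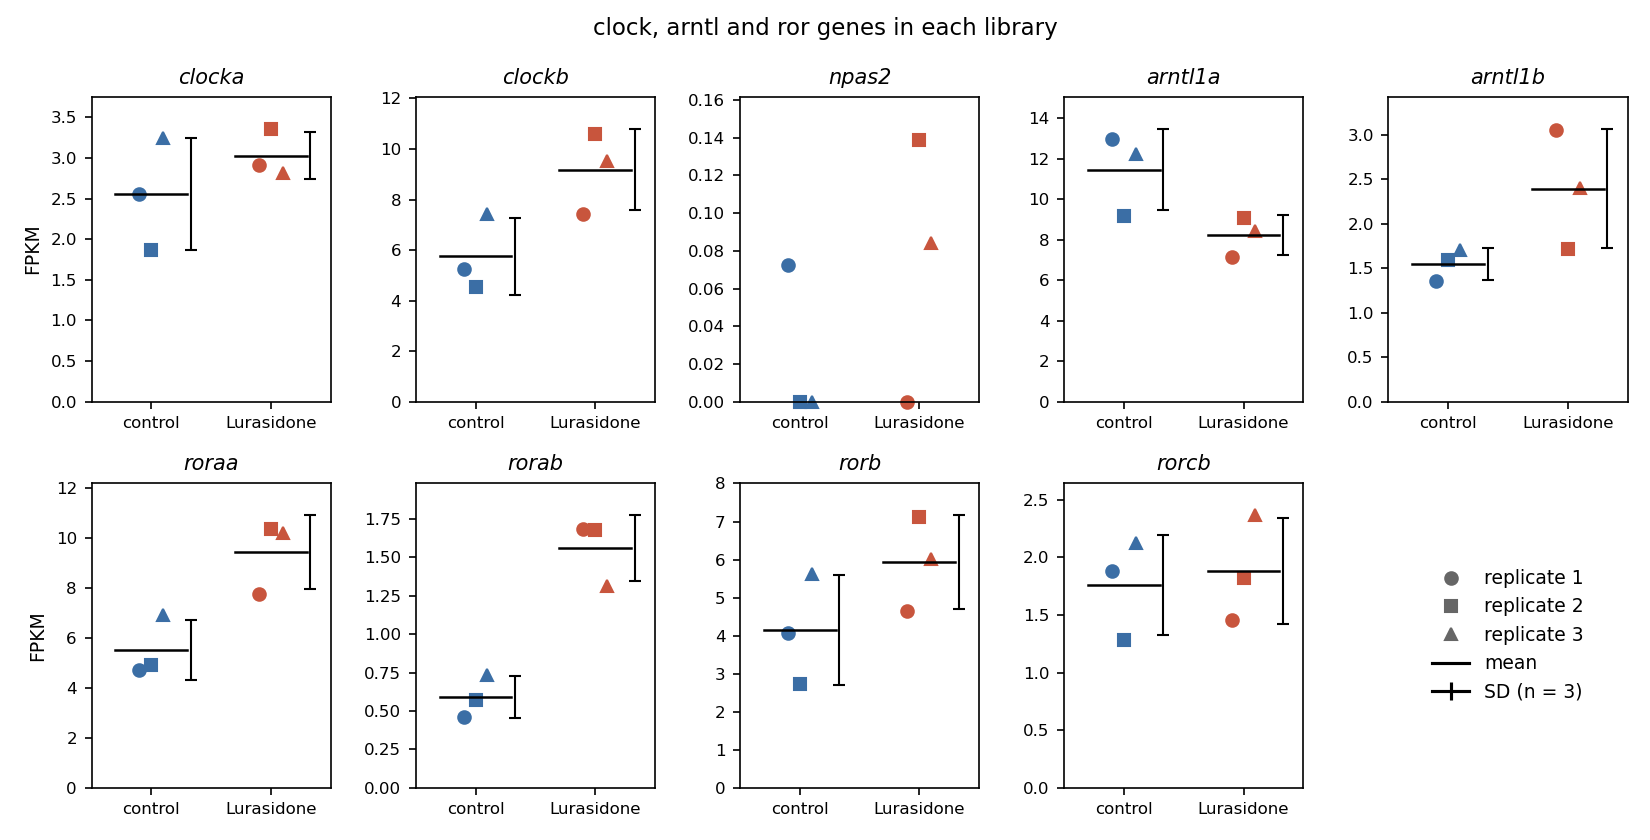
FPKM of 9 of the 10 genes in each library (y axis, linear from 0, a scale of its own for each gene), with controls on the left and Lurasidone on the right. Symbols are replicates, lines are means and bars are the SD of 3 libraries (not drawn for npas2, which is near 0). All Lurasidone libraries lie above all control libraries for arntl1b, roraa and rorab and below them for arntl1a.

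Among the partners that carry the transcriptional activation, the 2 clock genes were both measured well, and clockb was the more abundant. For clocka (ENSDARG00000011703, chromosome 20, 22067337 to 22176003, plus strand), which encodes a Clock protein, FPKM was 2.56, 1.86 and 3.24 in control replicates 1 to 3 and 2.92, 3.36 and 2.82 in Lurasidone replicates 1 to 3. The ranges overlapped, and the Lurasidone libraries lay within a narrower band. The means were 2.56 ± 0.690 and 3.03 ± 0.285 (SD, n = 3), with a log2 fold change of 0.20 (95% interval -0.23 to 0.62, limma adjusted p = 0.53). It was 0.05 without control replicate 2 and 0.33 without control replicate 3. An antisense gene model, BX088688.3, lies within clocka on the other strand and held 10 fragments over the 6 libraries, against 143 to 308 on clocka in each library.

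For clockb (ENSDARG00000003631, chromosome 1, 19433004 to 19466453, plus strand), the second Clock gene, FPKM was 5.26, 4.54 and 7.44 in control and 7.44, 10.6 and 9.51 in Lurasidone. Control replicate 3 lay level with Lurasidone replicate 1, at 398 and 366 fragments, and the other control libraries lay below every Lurasidone library. The means were 5.75 ± 1.51 and 9.18 ± 1.60 (SD, n = 3), a ratio of 1.60, with a log2 fold change of 0.60 (SE 0.20, 95% interval 0.15 to 1.06, limma adjusted p = 0.091). Of 16 alternatives it passed only without control replicate 3 (log2 fold change 0.78, limma adjusted p = 0.039), and over all 16 the log2 fold change lay between 0.47 and 0.78 and the adjusted p between 0.039 and 0.24.

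The gene npas2 (ENSDARG00000016536, chromosome 5, 22791686 to 22830724, plus strand), which in mammals can take the place of Clock in the forebrain, was at the limit of detection. Its fragments were 3, 0 and 0 in control and 0, 5 and 3 in Lurasidone, which is 0.0727 FPKM in control replicate 1, 0.139 in Lurasidone replicate 2 and 0.0844 in Lurasidone replicate 3. It was left out of the main fit by the filter, at a depth where 3 fragments stand for 0.0727 to 0.0953 FPKM. The fits without a filter and with limma voom on fragments did include npas2, and it passed the threshold in neither.

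The 2 arntl genes that were measured lay on opposite sides of the control group. For arntl1a (ENSDARG00000006791, chromosome 25, 17893784 to 17918810, minus strand), the more abundant partner of Clock, FPKM was 13.0, 9.18 and 12.2 in control and 7.16, 9.09 and 8.45 in Lurasidone. All Lurasidone libraries lay below all control libraries, although the value of control replicate 2 was close to that of Lurasidone replicate 2. The means were 11.4 ± 2.00 and 8.23 ± 0.979 (SD, n = 3), a ratio of 0.719, and the log2 fold change was -0.42 (SE 0.18, 95% interval -0.82 to -0.03, limma adjusted p = 0.15).

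For arntl1b (ENSDARG00000035732, chromosome 7, 66048102 to 66105828, plus strand), its duplicate, FPKM was 1.36, 1.59 and 1.70 in control and 3.06, 1.72 and 2.40 in Lurasidone. The Lurasidone libraries lay above the control libraries and were further apart from each other, and Lurasidone replicate 2, with 84 fragments, was next to control replicate 3, with 90. The means were 1.55 ± 0.176 and 2.39 ± 0.670 (SD, n = 3), a ratio of 1.55, and the log2 fold change was 0.40 (SE 0.19, 95% interval -0.04 to 0.83, limma adjusted p = 0.21). It was 0.26 without Lurasidone replicate 1 and 0.60 in limma voom on fragments. The third gene, arntl2 (ENSDARG00000041381, chromosome 18, 15569627 to 15610856, minus strand), was listed at 0 in all 6 libraries, which in this table cannot be told from a gene that the counting missed.

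The ror genes encode nuclear receptors, and the 2 rora duplicates had the largest log2 fold changes of the 8 tested genes. For rorab (ENSDARG00000001910, chromosome 7, 29538628 to 29625509, minus strand), FPKM was 0.464, 0.570 and 0.737 in control and 1.68, 1.68 and 1.31 in Lurasidone. The groups were apart, with 30 to 48 fragments per control library and 78 to 101 per Lurasidone library. The gene rose from 0.590 ± 0.138 to 1.56 ± 0.213 FPKM (SD, n = 3), a ratio of 2.64, with a log2 fold change of 0.69 (SE 0.18, 95% interval 0.29 to 1.08, limma adjusted p = 0.039). Because a pseudocount of 1 understates the change of a gene this low, the log2 fold change was 1.28 with a pseudocount of 0.1 (adjusted p = 0.047) and 1.41 in limma voom on fragments (adjusted p = 0.012). The call was lost when any library other than control replicate 3 was left out, with limma adjusted p values of 0.14 and 0.091 without control replicates 1 and 2 and of 0.096, 0.11 and 0.070 without Lurasidone replicates 1, 2 and 3. In those fits 2.90% to 5.81% of all tested genes passed in either direction, against 9.70% with all 6 libraries. The call was also lost without a filter (limma adjusted p = 0.060), with quantile normalization (0.052) and with the replicate number as a block (0.083). Control replicate 1 was under 0.5 FPKM, so the gene could not have entered the test without Lurasidone libraries.

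For roraa (ENSDARG00000031768, chromosome 25, 33849647 to 33969717, plus strand), the other rora duplicate, FPKM was 4.72, 4.90 and 6.91 in control and 7.74, 10.4 and 10.2 in Lurasidone. All Lurasidone libraries lay above all control libraries, with 480 to 838 fragments in control and 864 to 1159 in Lurasidone. The means were 5.51 ± 1.21 and 9.43 ± 1.46 (SD, n = 3), a ratio of 1.71, and the log2 fold change was 0.69 (SE 0.19, 95% interval 0.26 to 1.11). Its limma adjusted p of 0.0505 missed the threshold, and it passed in 5 of 16 alternatives, over which it lay between 0.019 (limma voom on fragments) and 0.18 (without control replicate 1). With 1 library left out it passed only without control replicate 3 (0.027). Rora in the mouse is needed for the survival of Purkinje cells of the cerebellum.

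For rorb (ENSDARG00000033498, chromosome 5, 25366677 to 25406807, minus strand), whose mouse counterpart is needed for rod photoreceptors, FPKM was 4.08, 2.73 and 5.62 in control and 4.65, 7.11 and 6.01 in Lurasidone. The groups overlapped, since control replicate 3 lay above Lurasidone replicate 1. The log2 fold change was 0.45 (95% interval -0.07 to 0.98, limma adjusted p = 0.24), and it was 0.24 without control replicate 2. For rorcb (ENSDARG00000017780, chromosome 2, 49417900 to 49454451, plus strand), another receptor of the family, FPKM was 1.88, 1.28 and 2.13 in control and 1.46, 1.83 and 2.36 in Lurasidone. The ranges of the groups lay largely on each other, and the log2 fold change was 0.06 (95% interval -0.39 to 0.51, limma adjusted p = 0.87).

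**Figure D2:**
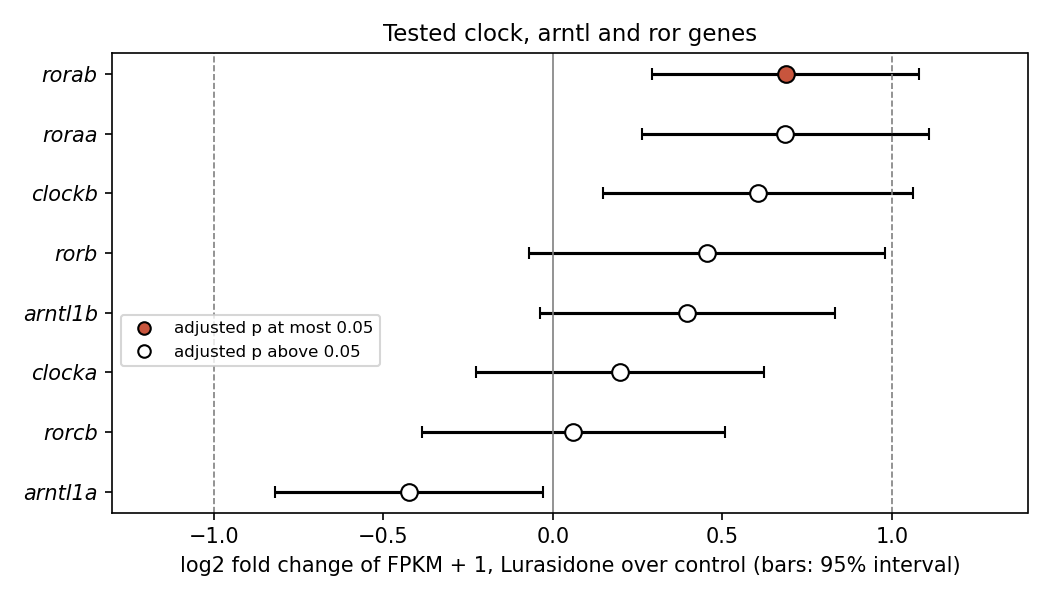
Log2 fold change of FPKM + 1, Lurasidone over control, of the 8 tested genes (points) with 95% intervals (bars, limma). Dashed lines mark the fold threshold of 1 in size. Only rorab is filled (adjusted p = 0.039), the intervals of rorab, roraa, clockb and arntl1a leave out 0, and arntl1a alone is on the lower side.

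Control replicate 3 had the highest value of the control group for 7 of the 8 tested genes, with arntl1a as the exception, and control replicate 2 had the lowest for 5. How often this holds over all tested genes was not computed. The fragments on genes came to 84.5% of the FPKM denominator in control replicate 3, the lowest share of the 6 libraries, and to 104.04% in control replicate 2, the highest. Recomputing FPKM on summed fragments raises the values of control replicate 3 and lowers those of control replicate 2. In that alternative, chosen after the data had been seen, rorab was again the only one of the 8 past the threshold (limma adjusted p = 0.046). There roraa had an adjusted p of 0.063.

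By mean FPKM in control, the order was arntl1a (11.4), clockb (5.75), roraa (5.51), rorb (4.14), clocka (2.56), rorcb (1.77), arntl1b (1.55), rorab (0.590), with npas2 and arntl2 at the end. The ranges of the 3 libraries overlapped between neighbors from clockb down to arntl1b and did not overlap between arntl1a and clockb or between arntl1b and rorab. In Lurasidone the order was roraa (9.43), clockb (9.18), arntl1a (8.23), rorb (5.92), clocka (3.03), arntl1b (2.39), rorcb (1.88) and rorab (1.56). There, roraa, clockb and arntl1a overlapped as neighbors, as did clocka, arntl1b, rorcb and rorab. Levels between genes rest on the gene length used by the authors, which ran from 1594 bases for rorb to 9352 bases for rorcb.

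The duplicates of a pair are measured in the same libraries, so their ratio does not depend on the scaling of a library. The log2 ratio of arntl1a to arntl1b was 3.26, 2.53 and 2.84 in control and 1.23, 2.40 and 1.81 in Lurasidone, a mean difference of -1.06. The log2 ratio of roraa to rorab was 3.35, 3.10 and 3.23 in control and 2.20, 2.62 and 2.96 in Lurasidone, a mean difference of -0.63. The log2 ratio of clocka to clockb was -1.04, -1.28 and -1.20 in control and -1.35, -1.66 and -1.75 in Lurasidone, a mean difference of -0.41. In each pair all Lurasidone libraries lay below all control libraries, that is, toward the less abundant duplicate for arntl1 and rora and toward the more abundant clockb for clock. How often the ratios of other gene pairs lie apart in this way was not computed. The pairs share the same libraries and were chosen with earlier results known. A two-sided exact permutation test gave p = 0.1 for each of the 3 pairs (0.1 after Benjamini-Hochberg adjustment over the 3), the smallest that 3 libraries against 3 can give. Duplicates are similar in sequence, and how the authors' counting divided fragments between them is not given in the sources used here.

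As a share of summed FPKM, arntl1b made up 9.47, 14.8 and 12.2% of the arntl transcripts in control and 29.9, 15.9 and 22.1% in Lurasidone. The share of rorab among the rora transcripts was 8.94, 10.4 and 9.63% in control and 17.9, 14.0 and 11.4% in Lurasidone. These shares and the sums that follow were chosen after the values had been seen and are given without a test. The clock and npas2 genes together came to 7.89, 6.40 and 10.7 FPKM in control and 10.4, 14.1 and 12.4 FPKM in Lurasidone, and the groups overlapped. The arntl genes together came to 14.3, 10.8 and 13.9 FPKM in control and 10.2, 10.8 and 10.8 FPKM in Lurasidone, also with an overlap. Divided within each library, the ratio of clock and npas2 to arntl was 0.551, 0.594 and 0.768 in control and 1.01, 1.30 and 1.14 in Lurasidone. The groups did not overlap in this ratio, and Lurasidone replicate 1 was practically level between the families. The ratio takes arntl2 as 0, as listed, and its size rests on the gene lengths used by the authors.

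**Figure D3:**
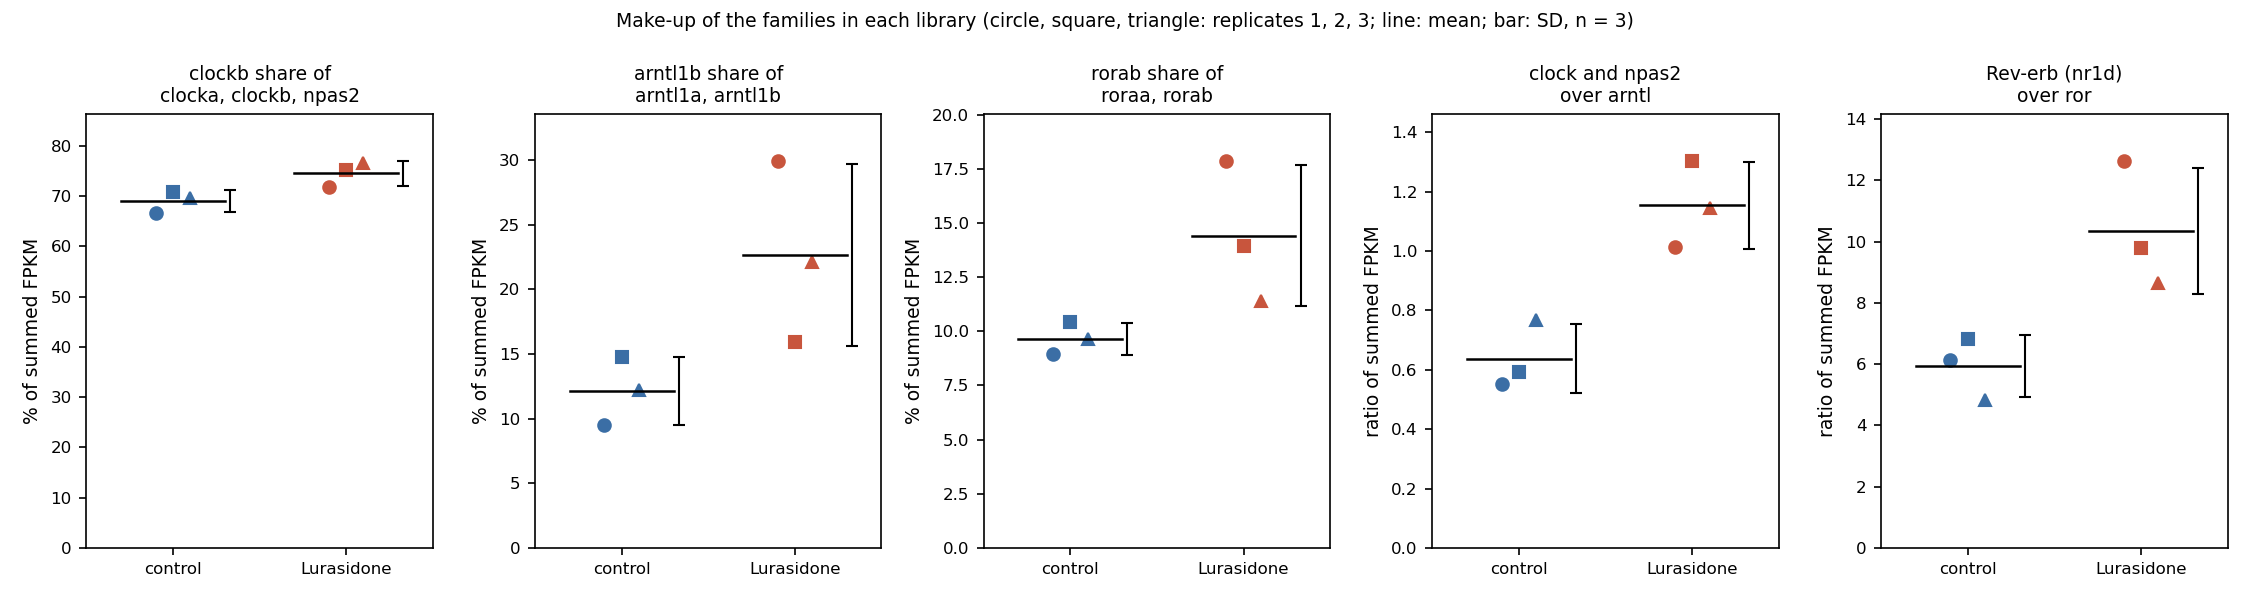
Make-up of the gene families per library, with percent of summed FPKM in the first 3 panels and ratios of summed FPKM in the last 2 (linear axes from 0). Symbols are replicates, lines are means and bars are the SD of 3 libraries. The ratio of clock and npas2 to arntl lies between 0.551 and 0.768 in control and between 1.01 and 1.30 in Lurasidone.

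The repressors, the Rev-erb receptors and the PAR bZIP and nfil3 factors, all lists of genes that the positive limb acts on or answers to, had higher medians than the positive limb itself. The list called repressors holds per, cry, ciart and bhlhe genes. Not every cry gene in it, such as cry5, need block the Clock and Arntl pair. Of this list, 14 genes were tested. Past the adjusted threshold, 9 of them were higher and 0 lower, where 5.79% and 3.90% of all tested genes were, and their median log2 fold change was 1.31. The smallest adjusted p values were those of per1a (from 1.02 ± 0.186 to 6.12 ± 0.770 FPKM, log2 fold change 1.82, limma adjusted p = 7.9e-04) and cry5 (from 1.16 ± 0.231 to 6.73 ± 0.996 FPKM, log2 fold change 1.84, limma adjusted p = 8.1e-04). At an unadjusted p of at most 0.05, 10 were higher and 2 were lower, where 28.2% of all tested genes reached that level in either direction. The lists were written with earlier results of these data known, so their counts are a description.

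The Rev-erb receptors compete with the Ror receptors for DNA, and 3 of the 5 tested were higher and 0 lower (5.79% and 3.90% over all tested genes), and the median log2 fold change of the 5 was 1.18. Among them nr1d1 had the smallest adjusted p (log2 fold change 2.22, limma adjusted p = 4.1e-04), followed by nr1d2a (log2 fold change 1.18, limma adjusted p = 0.0035). The summed FPKM of the listed Rev-erb genes was divided by that of roraa, rorab, rorb and rorcb. The ratio was 6.15, 6.82 and 4.84 in control and 12.6, 9.78 and 8.65 in Lurasidone, without an overlap. Of the PAR bZIP and nfil3 factors, which bind D-box elements, 5 of 8 tested were higher and 0 lower (5.79% and 3.90% over all tested genes), with a median of 0.94. Here nfil3-6 (log2 fold change 2.19, limma adjusted p = 3.5e-04) and tefa (2.20, limma adjusted p = 5.6e-04) had the smallest adjusted p values.

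Proteins that modify or assist the Clock and Arntl pair were mostly not past the threshold. Of 15 tested clock kinases and ubiquitin ligases, 0 were higher and 2 lower (5.79% and 3.90% over all tested genes), and their median was -0.19 on the log2 scale. These were gsk3ba, a glycogen synthase kinase (log2 fold change -0.67, limma adjusted p = 0.036), and fbxw11b, a substrate receptor of a ubiquitin ligase (-0.81, limma adjusted p = 0.046). In this list 1 gene was higher and 3 were lower at an unadjusted p of at most 0.05, so 4 of 15, close to the 28.2% over all tested genes. Of 18 tested coactivators and corepressors, 0 were higher and 1 lower (5.79% and 3.90% over all tested genes), namely nono, an RNA-binding partner of Per proteins (log2 fold change -0.89, limma adjusted p = 0.018), with a median of -0.12. At an unadjusted p of at most 0.05, 1 was higher and 2 were lower, so 3 of 18.

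Clock and Arntl belong to the bHLH-PAS family, and of 14 other tested members of that family 3 were higher and 1 lower (5.79% and 3.90% over all tested genes), and the median of the 14 was 0.11 on the log2 scale. The smallest adjusted p values among the higher genes were those of npas4a, a factor induced by neuronal activity (from 5.07 ± 0.640 to 13.2 ± 1.27 FPKM, log2 fold change 1.22, limma adjusted p = 0.0028), and hif1al, a hypoxia-inducible factor gene (log2 fold change 0.70, limma adjusted p = 0.024). The lower gene was sim1b (log2 fold change -0.72, limma adjusted p = 0.029), a factor of hypothalamic neurons. In Lurasidone sim1b was at 0.205 to 0.248 FPKM (5 to 6 fragments per library), under the filter of 0.5 FPKM. It therefore entered the test only through the control libraries.

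**Figure D4:**
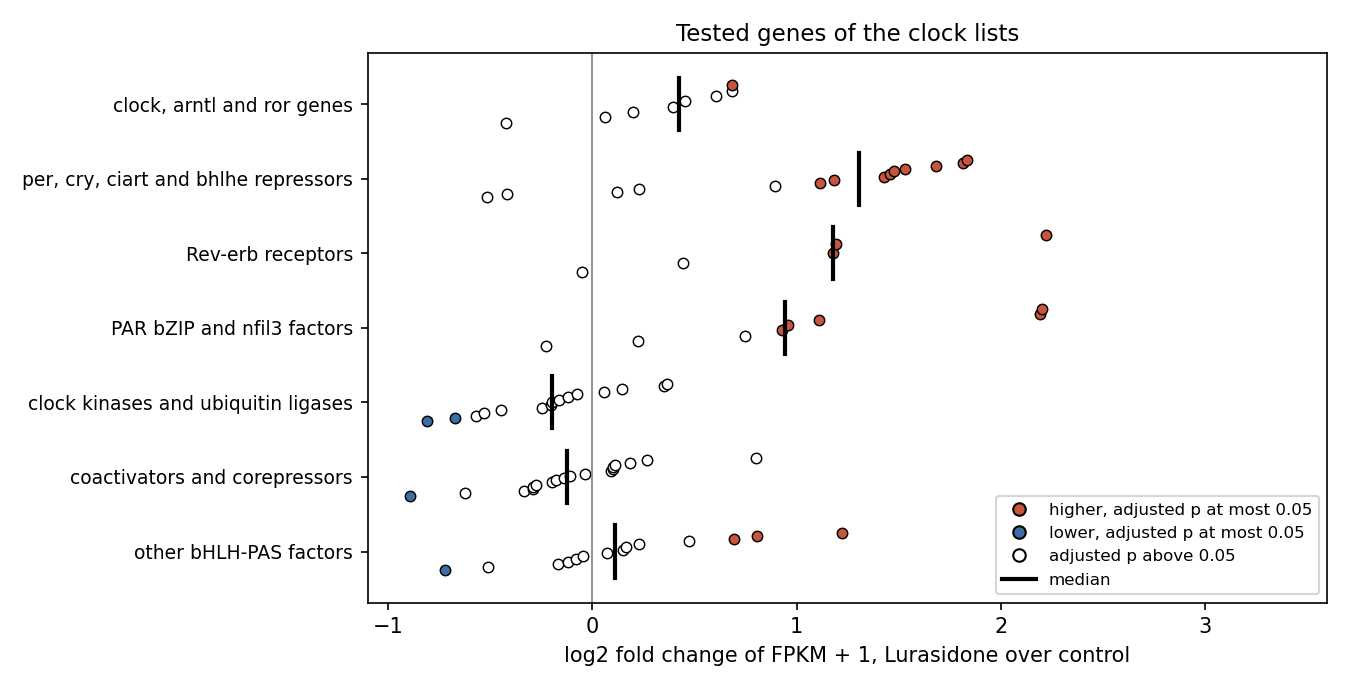
Log2 fold change of FPKM + 1, Lurasidone over control, of every tested gene (points) in 7 lists, with the median of each list (vertical bar) and filled points for an adjusted p of at most 0.05. The medians of the repressors (1.31), the Rev-erb receptors (1.18) and the PAR bZIP and nfil3 factors (0.94) lie to the right of that of the clock, arntl and ror genes (0.42).

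Markers of cells in which ror genes are known to be expressed were read in the same libraries. The 7 neuronal markers summed to 498 to 544 FPKM in control and 423 to 426 in Lurasidone. Past the adjusted threshold 0 were higher and 0 lower, where 5.79% and 3.90% of all tested genes were. At an unadjusted p of at most 0.05, 0 were higher and 3 of the 7 lower. Of all tested genes, 28.2% reached that level in either direction. The 6 cerebellar markers summed to 98.8 to 118 FPKM in control and 69.0 to 78.1 in Lurasidone. Of these, pvalb7, a marker of Purkinje cells, was higher (log2 fold change 0.76, limma adjusted p = 0.031). In control pvalb7 was at 0.258 to 0.415 FPKM, so it entered the test only through the Lurasidone libraries. The gene neurod1, a factor of granule cells, was lower (-0.62, limma adjusted p = 0.037). By mean FPKM, aldoca was 0.569 times (limma adjusted p = 0.056) and ca8 0.827 times (limma adjusted p = 0.44) the control level. For zic1 the ratio was 0.619 (limma adjusted p = 0.068). Over the 6 markers, the log2 fold change was above 0 for 2 and below 0 for 4. The 10 photoreceptor markers summed to 4664 to 6661 FPKM in control and 3174 to 4100 in Lurasidone. Of the 10, 1 was higher and 3 lower past the adjusted threshold (5.79% and 3.90% over all tested genes). The 7 skeletal muscle markers summed to 2763 to 3967 FPKM in control and 4879 to 5454 in Lurasidone. Of the 6 tested, 1 was higher and 0 lower (5.79% and 3.90% over all tested genes). In each of these 4 lists, 0 markers were at 0 in every library, and 1 muscle marker, mylpfa, was near 0. The sums of the neuronal, cerebellar and photoreceptor markers were lower in Lurasidone and that of the muscle markers was higher. Such sums follow the most abundant markers, which in the cerebellar list were neurod1 and zic1. The 2 least abundant cerebellar markers, pvalb7 and cbln12, were 3.64 and 2.49 times their control level by mean FPKM (cbln12 not past the threshold). For cbln12 there were 3 to 9 fragments per control library and 12 to 17 per Lurasidone library. Like pvalb7, it could not have entered the test without Lurasidone libraries. In muscle, ckmb went from 1857 ± 328 to 3526 ± 231 FPKM (SD, n = 3). The log2 fold change was above 0 for 3 of the 6 tested muscle markers and below 0 for 3 (median 0.08). Among photoreceptor markers it was above 0 for 3 and below 0 for 7 (median -0.40). The 1 higher past the threshold was arr3a, at 2.50 times its control level. The 3 lower were crx (log2 fold change -1.53, limma adjusted p = 0.0088), opn1mw1 (-0.94, limma adjusted p = 0.035) and saga (-0.80, limma adjusted p = 0.015). The part of any of these differences in the values of the ror genes was not tested.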

How the data were processed

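RNA of 3 control and 3 Lurasidone libraries was analysed, grouped by the sample labels, with each library a separate biological replicate per the methods. The authors sequenced paired-end reads and deposited FPKM per gene and library, with gene length and position. The aligner, counting tool, strand setting and annotation are not given in the sources used here, and the submitters' processing notes name the genome builds GRCz11 and danRer11. The table held 0 columns of unknown samples.

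Genes that reached 0.5 FPKM in 3 or more libraries were kept, and a linear model of log2(FPKM + 1) on group alone was fitted in R 4.3.3 using limma 3.58.1 (lmFit, then eBayes with its trend option). Multiplying FPKM by gene length recovered the fragments, and 100% of the values above 0 came within 0.05 of a whole number. They gave the depth, the floor of 3 fragments and a limma voom alternative on genes with at least 2 fragments. Floors cover counting error only, since PCR copies were not separated. An exact permutation test, two-sided, was used for the log2 ratio of each pair of duplicates. Scripts were tested on simulated data. Alternatives were other scalings, pseudocounts, filters and variance models, the replicate number as a block, and leaving out each library.

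Named genes were the 10 members and up to 2 genes per list and direction with the smallest adjusted p. For the 2 members with the smallest adjusted p, the 3 genes with the most similar profile outside the members and lists were added. Markers in the text were named after their values had been seen. The members and lists were chosen with earlier results of these data known. Of 22 listed symbols of repressors, 14 were in the table. 1 item is not reported here. Figures were drawn with matplotlib 3.10.9.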

Additional observations from a re-analysis of the deposited data

How the results depend on the processing

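The number of clock, arntl and ror genes higher in Lurasidone at an adjusted p of at most 0.05, 1 as reported, was 0 without a filter and 0 with the replicate number as a block, 2 among protein-coding genes only and 2 with limma voom on fragments, and between 0 and 3 when 1 library was left out. The 3 came without control replicate 3 (roraa, clockb and rorab), and 0 came without each of the other libraries. Of all tested genes, 9.70% passed in either direction as reported, 4.14% without a filter and 5.84% with the block. The share was 10.7% among protein-coding genes and 9.45% with limma voom. It was 12.6% without control replicate 3 and 2.90% to 5.81% without each of the other libraries. The number of genes past the fold threshold, 0 as reported, was 1 (rorab) with a pseudocount of 0.1 and 1 (rorab) with limma voom. The number of lower genes was 0 under each alternative run, where arntl1a had adjusted p values between 0.093 and 0.39. With quantile normalization roraa passed in place of rorab (adjusted p = 0.0475 and 0.0522). With the filter at 5 FPKM, 4 of the genes were tested, rorab was not among them, and roraa passed (limma adjusted p = 0.036). The log2 fold change of rorcb was -0.011 with quantile normalization and lay between -0.071 and 0.17 when 1 library was left out. The median over the tested members lay between 0.33 and 0.60, and the 3 ratios of duplicates kept their sign in every alternative run. Leaving out 1 library moved the difference of the arntl1 pair between -1.36 and -0.77, that of the rora pair between -0.82 and -0.44 and that of the clock pair between -0.53 and -0.33. Same-numbered libraries of the groups were treated as unpaired in the main fit. Their deviations from the group means correlated at 0.12, -0.10 and 0.01, and those of different-numbered libraries at -0.22 to 0.19. Deviations within a group depend on each other, so these correlations cannot settle whether the libraries were paired. With the block rorab had a limma adjusted p of 0.083. The causes of these shifts were not tested. Depth limits npas2, and 30 to 101 fragments lie behind each value of rorab.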

Other observations

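Genes with a similar profile over the 6 libraries were sought by the root mean square difference of centred log2(FPKM + 1). The search covered 15828 protein-coding genes that averaged 1 FPKM or more. The members and all genes of the lists were left out, so no listed clock gene could be returned. For rorab the nearest were timm23b (0.0369), msrb1a (0.0505) and popdc3 (0.0511). For roraa they were inpp4ab (0.0469), usp13 (0.0578) and dapk2b (0.0639). The log2 fold changes of these genes lay between 0.58 and 0.77. Picking genes by profile over the same libraries makes their fold changes close to those of rorab and roraa, so this closeness is no separate result.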
